A study of Homo sapiens with 4 samples.

Results

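Matrix metalloproteinases (MMPs) and the proteins that hold them in check were followed in control and RUNX3 KO HGC-27 cells. The set comprises 10 genes, taken by symbol from the 25559 gene symbols of the count tables. They are the secreted gelatinase gene MMP2, the membrane-type genes MMP14, MMP15, MMP16 and MMP24, the inhibitor genes TIMP1, TIMP2, TIMP3 and RECK, and BSG. HGC-27 is a gastric cancer cell line from a lymph node metastasis, and both groups are this line. The control group, which the labels call wildtype, had 2 poly(A) RNA libraries, and the RUNX3 KO group, made with Cas9 and a guide against RUNX3 and taken through single-cell cloning, also had 2. Neither the number of KO clones, nor whether control cells had been transduced or cloned, nor whether replicates were separate cultures is given in the sources used here. The p-values therefore measure the spread between these libraries only, which may be technical, and an effect of cloning cannot be told apart from that of the RUNX3 edit.

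MMPs are zinc-dependent enzymes that are made as inactive proenzymes and cut collagens and other proteins of the extracellular matrix. Membrane-type MMPs sit in the cell membrane, and MMP14, an interstitial collagenase, also activates proMMP2 at the cell surface, with TIMP2 as the bridge between the enzyme and its substrate. TIMPs block the active site of MMPs, so TIMP2 is a cofactor of this activation at moderate amounts and an inhibitor in excess. RECK is a membrane-anchored inhibitor, and BSG (basigin, CD147 or EMMPRIN) is a membrane glycoprotein known for inducing MMPs in neighbouring cells and for carrying lactate transporters to the membrane.

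Promoter windows were read from RefSeq (GRCh38.p14), and windows of 7 of the 10 genes were used, with 2 start sites for BSG. Windows of MMP2, MMP16 and TIMP2 were not analysed here. Both strands of each window, from 250 bases before to 50 bases after the start, were searched for TGTGGT, the core letters of the RUNX motif, and for TGANTCA, the AP-1 motif. TGTGGT was present in the windows of MMP14 and TIMP1, and in 13.1% of all 35116 windows of that length. TGANTCA was in none of the 8 windows of these genes and in 7.71% of all windows. The 2 windows with the RUNX letters are shown, with the match in capitals. Both genes were lower in RUNX3 KO cells, but so was TIMP3, whose window had no match. The MMP14 window is chr14:22836335-22836634 (plus strand), and its match begins 177 bases before the start and reads TGTGGT on the opposite strand. The TIMP1 window is chrX:47582186-47582485 (plus strand), and its match begins 71 bases before the start on the strand of the gene. A match is a description of the letters and not of binding.
MMP14: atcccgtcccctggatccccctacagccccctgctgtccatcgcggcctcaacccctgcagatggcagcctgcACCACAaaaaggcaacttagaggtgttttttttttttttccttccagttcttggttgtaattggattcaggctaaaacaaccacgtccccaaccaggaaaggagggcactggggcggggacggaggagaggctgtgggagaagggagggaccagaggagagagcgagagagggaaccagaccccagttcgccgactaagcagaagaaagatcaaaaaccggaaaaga
TIMP1: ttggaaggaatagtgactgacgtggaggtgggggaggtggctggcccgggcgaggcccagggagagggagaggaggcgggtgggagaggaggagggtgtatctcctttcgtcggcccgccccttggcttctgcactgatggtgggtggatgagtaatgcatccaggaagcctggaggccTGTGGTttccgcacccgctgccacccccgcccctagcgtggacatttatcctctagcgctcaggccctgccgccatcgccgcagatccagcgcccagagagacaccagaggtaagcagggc

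Counts on genes ranged from 11731401 to 12110876 per library. RUNX3 itself had 351 and 308 counts in control and 225 and 185 in RUNX3 KO libraries, a log2 change of -0.70 (SE 0.0961, adjusted p = 1.43e-09, edgeR). RUNX3 RNA was thus lower but still present, and counts per gene do not show whether its reading frame was cut. The paper reports that RUNX3 protein was absent from its KO cells by immunoblot. Defining markers of gastric epithelium were absent or low, since KRT19, TFF1, TFF2, MUC5AC and GKN1 had 0 counts in every library, and 11 epithelial and gastric markers summed to 2.97 to 3.30 CPM (counts scaled to library size by the TMM method of edgeR) in control and 8.90 to 10.6 CPM in RUNX3 KO libraries. The 2 of them that could be tested, CDH1 and KRT8 (named after their values were seen), were both higher (against 24.5% of all tested genes). The 7 mesenchymal markers summed to 5252 to 5281 CPM in control and 3092 to 3158 CPM in RUNX3 KO libraries, and the 6 that could be tested were all lower (against 24.4% of all tested genes). VIM made up most of these sums, at a mean of 4885 CPM in control and 2901 CPM in RUNX3 KO cells. CDH2 had at most 3 counts in any library. Both were named after their values were seen. Leukocyte and endothelial markers summed to at most 1.44 CPM, with CD3E, PECAM1 and CDH5 at 0. The part of these shifts in the results below was not tested. In bulk RNA, fewer cells of a type and less RNA per cell cannot be told apart.

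Of the 10 genes, 9 passed the filter on low counts and 8 differed between conditions at an adjusted p under 0.05 (quasi-likelihood test of edgeR, with p adjusted by Benjamini-Hochberg over 12967 genes). MMP2, MMP14 and the 3 TIMPs were lower in RUNX3 KO cells, against 24.4% of all tested genes, and MMP15, MMP24 and BSG were higher, against 24.5%. With 48.9% of all tested genes called in one direction or the other, a call by itself sets no gene apart, and the sizes differed widely. The study itself asked for a change of 2-fold or more with a p up to 0.05, which was applied here to the p before adjustment. By that rule 3 genes passed (6.12% of all tested genes), of which MMP2 and MMP14 were lower (4.01% of all) and MMP24 was higher (2.11%). The 2 groups of libraries did not overlap for 8 of the 9 genes, which held for 72.7% of all tested genes. The median log2 fold change of the 9 tested genes was -0.26, and that of all tested genes was -0.0021.

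**Figure D1:**
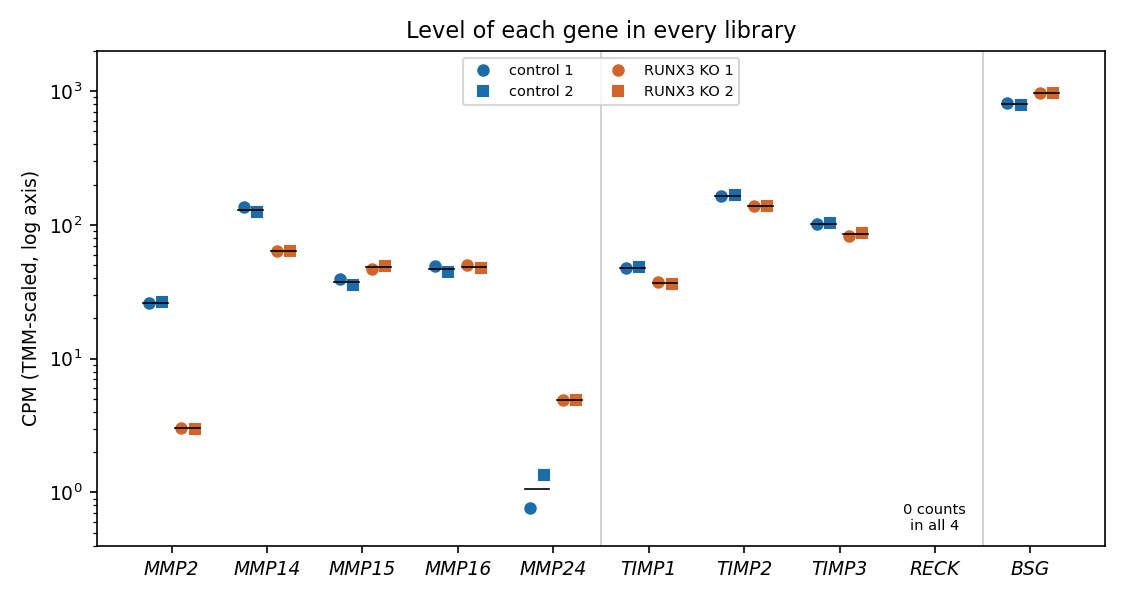
CPM (log axis) of each gene in the 4 libraries. Blue marks are control and orange marks RUNX3 KO libraries, circles are replicate 1, squares replicate 2, and black lines the means of 2 libraries. MMP2 drops from 26.3 to 3.02 CPM, MMP24 rises from 1.06 to 4.91 CPM, MMP16 overlaps between groups, and RECK has 0 counts throughout.

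MMP2 encodes gelatinase A, a secreted enzyme that cuts denatured collagen and type IV collagen. It lies on chromosome 16 from 55423612 to 55540603 (GRCh37, plus strand; ENSG00000087245). Control libraries held 309 and 311 of its reads, and both RUNX3 KO libraries held 36. The groups were far apart, and the replicates of each group were nearly equal. Its level went down from 26.3 ± 0.128 CPM (SD, n = 2) to 3.02 ± 0.0393 CPM (SD, n = 2), a log2 change of -3.12 with an SE of 0.141 (adjusted p = 3.97e-35, edgeR). This is 8.66-fold lower, and MMP2 ranked 89 by size of log2 fold change among the genes that were lower. On a scale that also divides by gene length (RPKM, that is CPM per kilobase of merged exons), MMP2 stood at 5.58 in control cells, above 47.7% of the 12113 tested genes that had a length, and at 0.642 in RUNX3 KO cells, above 11.2% of them.

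MMP14 encodes MT1-MMP, the membrane-type collagenase that activates proMMP2. It lies on chromosome 14 from 23305769 to 23318250 (plus strand; ENSG00000157227). Its counts were 1592 and 1478 in control and 746 and 760 in RUNX3 KO libraries. Control libraries differed from each other by more than the RUNX3 KO libraries did, but the groups did not overlap. The MMP14 level went down from 130 ± 6.79 CPM to 63.2 ± 0.00811 CPM (SD, n = 2 per group), a log2 change of -1.04 with an SE of 0.0482 (adjusted p = 1.64e-34, edgeR). MMP14 lay just past the 2-fold line, and without control replicate 1 the log2 fold change was -0.99, under 2-fold. Even so, MMP14 remained the MMP with the highest RPKM of the 5 in both conditions.

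The other membrane-type MMPs did not follow MMP14. MMP15 (MT2-MMP) lies on chromosome 16 from 58059658 to 58080805 (plus strand; ENSG00000102996), on the same arm as MMP2. It had 464 and 422 counts in control and 556 and 597 in RUNX3 KO libraries, without overlap. Its level rose from 37.5 ± 2.51 to 48.4 ± 1.80 CPM (SD, n = 2 per group), a log2 change of 0.37 with an SE of 0.0686 (adjusted p = 3.79e-06, edgeR). Without RUNX3 KO replicate 2 this was 0.33, and the call was lost (adjusted p = 0.0797 by the edgeR test, against at most 0.0479 in the other 12 fits). With 1 library left in a group, the spread came from the other group alone.

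MMP16 (MT3-MMP), on chromosome 8 from 89044239 to 89340254 (minus strand; ENSG00000156103), had 581 and 523 counts in control and 590 and 572 in RUNX3 KO libraries. The groups overlapped. The log2 fold change was 0.06 with a 95% interval from -0.07 to 0.19 (SE 0.0653, adjusted p = 0.466 by the edgeR test).

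MMP24 (MT5-MMP), known mainly from neural tissue, lies on chromosome 20 from 33814493 to 33864801 (plus strand; ENSG00000125966). It was nearly silent in control cells, with 9 and 16 counts, and had 58 and 59 counts in RUNX3 KO libraries. The level rose from 1.06 ± 0.420 to 4.91 ± 0.00457 CPM (SD, n = 2 per group), a log2 change of 2.20 with an SE of 0.278 (adjusted p = 7.87e-11, edgeR), or 4.60-fold. With so few control counts, the value ranged from 1.85 to 2.67 when 1 library was left out. Its exons share 806 bases with exons of MMP24OS on the opposite strand, a gene that has no row in the tables. Whether counting used the strand is not given in the sources used here, so reads of the partners cannot be told apart. Nor can reads be told apart in smaller stretches of exon that other members share with genes without a row, of 174 bases in MMP2, 118 in MMP16, 140 in BSG (with BSG-AS1), and 367 and 224 in TIMP2, the latter with CEP295NL on the same strand. In RPKM, MMP24 passed MMP2 in the RUNX3 KO cells, at 1.12 against 0.642, whereas in control cells it was at 0.242 against 5.58.

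All other MMPs were at or near the limit of detection. Of 19 further MMP genes and TIMP4, none passed the filter, 11 had 0 counts in every library, and the highest count of any was 7. This group takes in the collagenases MMP1, MMP8 and MMP13, the gelatinase MMP9, the stromelysins MMP3, MMP10 and MMP11, and the matrilysin MMP7. A count of 0 allows up to 3 counts, or at most 0.254 CPM in any library. This limit covers counting error only.

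**Figure D2:**
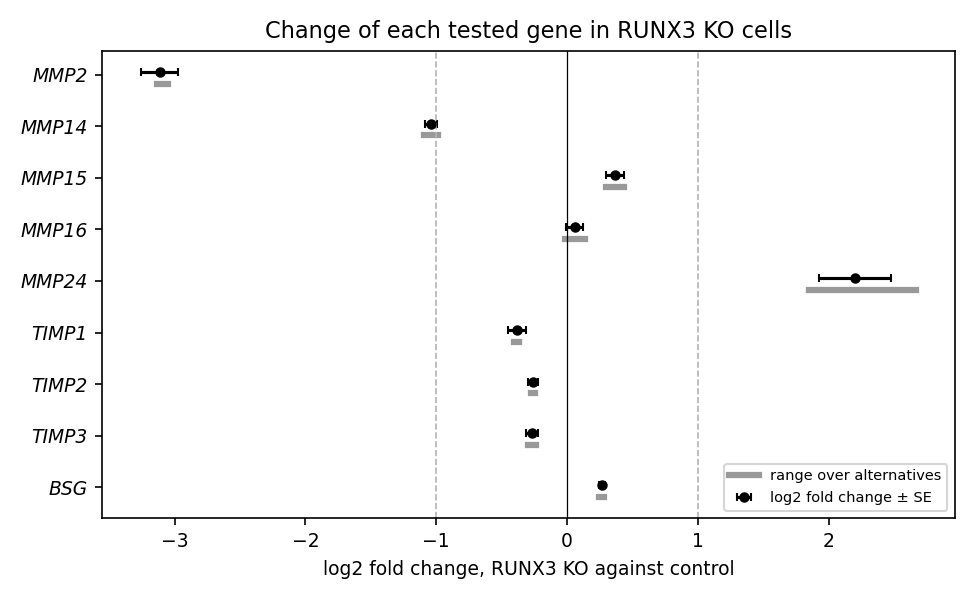
Log2 fold change of the 9 tested genes in RUNX3 KO against control cells. Points with bars are the value and its SE, grey bars the range over 13 other fits (12 for MMP24), and dashed lines mark a 2-fold change. MMP2 (-3.12) and MMP24 (2.20) lie far beyond the lines, MMP14 (-1.04) lies at the line, and the TIMPs lie between -0.38 and -0.26.

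The 3 expressed TIMPs were all lower, by 1.20- to 1.30-fold. TIMP1, a secreted inhibitor of most soluble MMPs and a weak one of MMP14, lies on chromosome X from 47441807 to 47446188 (plus strand; ENSG00000102265). It had 558 and 569 counts in control and 438 and 434 in RUNX3 KO libraries, and its level went from 47.7 ± 0.673 to 36.6 ± 0.714 CPM (SD, n = 2 per group). Its log2 change was -0.38 with an SE of 0.0683 (adjusted p = 1.37e-06, edgeR).

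TIMP2, the partner of MMP14 and proMMP2, lies on chromosome 17 from 76849059 to 76921469 (minus strand; ENSG00000035862). Its 1930 and 1970 control counts and 1640 and 1652 RUNX3 KO counts did not overlap. The level went from 165 ± 2.44 to 138 ± 1.09 CPM (SD, n = 2 per group), and the log2 change was -0.26 with an SE of 0.0382 (adjusted p = 1.27e-08, edgeR). TIMP2 thus differed beyond the spread of the replicates, but by only 1.20-fold.

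TIMP3, which binds to the matrix and also inhibits ADAM17, lies on chromosome 22 from 33197691 to 33259028 (plus strand; ENSG00000100234) within the span of SYN3, whose count was at most 1. It had 1191 and 1223 counts in control and 982 and 1039 in RUNX3 KO libraries. The log2 change was -0.27 with an SE of 0.0470 (adjusted p = 8.11e-07, edgeR), from 102 ± 1.95 to 84.8 ± 2.28 CPM (SD, n = 2 per group). The tested genes around TIMP3 had negative values too, with a median of -0.54 on the log2 scale.

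RECK had 0 counts in all 4 libraries, on chromosome 9 from 36036910 to 36124452 (plus strand; ENSG00000122707). No fold can be given, and by the limit of 3 counts its level was at most 0.254 CPM. Of the 4 inhibitor genes in the set, TIMP1, TIMP2 and TIMP3 were thus the ones detected, in both conditions.

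BSG was by far the most abundant of the 10 genes, on chromosome 19 from 571277 to 583494 (plus strand; ENSG00000172270). It had 9548 and 9301 counts in control and 11317 and 11535 in RUNX3 KO libraries, which did not overlap. The level rose from 798 ± 14.6 to 959 ± 0.453 CPM (SD, n = 2 per group), a log2 change of 0.26 with an SE of 0.0231 (adjusted p = 1.08e-17, edgeR). In RPKM it was above 98.8% of the tested genes with a length in control cells and above 99.0% in RUNX3 KO cells. BSG thus moved opposite to MMP2 and MMP14, at a small size. Of 25 tested genes around it, 18 also had a positive log2 fold change, a count of signs and not of calls. With the median of these 25, 0.14, subtracted, the log2 value of BSG was 0.12.

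Levels of different genes were compared in RPKM. In control cells the order was BSG (181), TIMP1 (33.0), MMP14 (28.1), TIMP2 (26.6), TIMP3 (22.2), MMP15 (8.87), MMP2 (5.58), MMP16 (3.86), MMP24 (0.242) and RECK (0). No neighbours in this order overlapped between libraries. In RUNX3 KO cells MMP14 (13.7) stood below all 3 TIMPs (18.4 to 25.3), close to MMP15 (11.4), and MMP2 came after MMP24. With the longest transcript as the length, the control order of TIMP1, MMP14 and TIMP2 became TIMP2 (45.2), TIMP1 (43.6) and MMP14 (33.8), so the order of these 3 rests on the length chosen. In RUNX3 KO cells MMP14 was below all 3 TIMPs on this scale too, at 16.4 against 18.4 for TIMP3, the lowest of them.

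The make-up of the summed MMP level also differed between conditions. A share can rise because other members fell, as for MMP16, whose level was not called different and whose share went from 8.42% and 8.11% to 13.4% and 12.6%. MMP14 made up 60.4% and 60.1% of the summed RPKM of the 5 MMPs in control libraries, against 44.5% and 44.0% after RUNX3 KO. MMP2 went from 11.5% and 12.4% to 2.11% and 2.05%. The share of MMP15 rose from 19.2% and 18.7% to 36.3% and 37.7%. Among the inhibitors the shares hardly moved, with TIMP1 at 40.4% and 40.3% in control and 38.8% and 37.9% in RUNX3 KO libraries. As shares of the counts themselves, MMP2 took 10.5% (95% exact binomial interval 9.38 to 11.6) of 2955 MMP counts in control replicate 1 and 11.3% (10.1 to 12.6) of 2750 in control replicate 2. In RUNX3 KO cells it took 1.81% (1.27 to 2.50) of 1986 in replicate 1 and 1.78% (1.25 to 2.45) of 2024 in replicate 2. These intervals cover counting error within 1 library only and do not compare the groups.

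**Figure D3:**
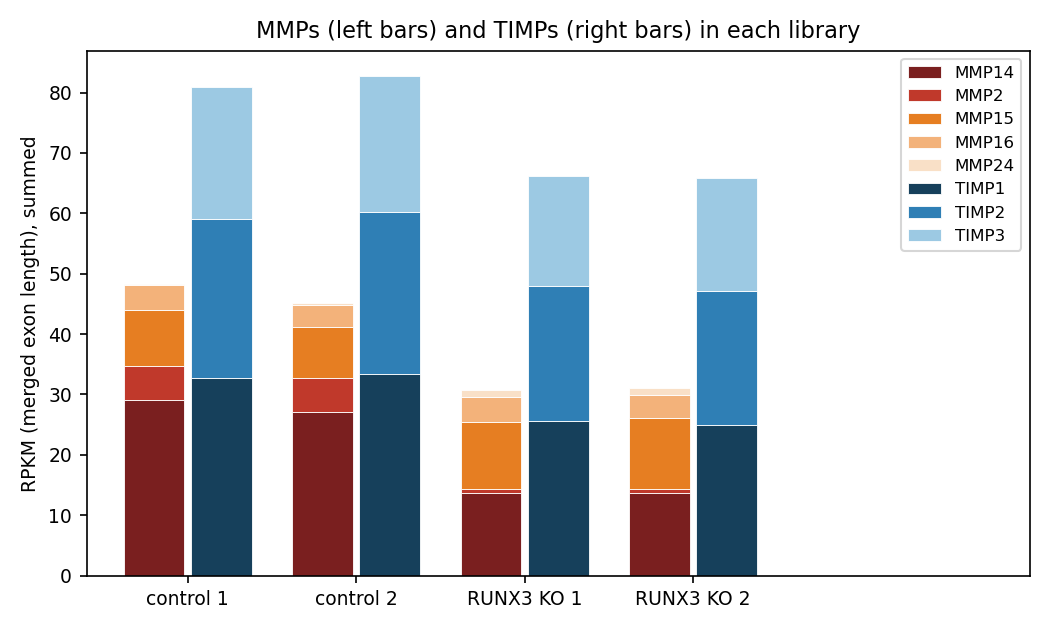
Summed RPKM (linear axis from 0) in each library, with the 5 MMPs in the left bars and TIMP1, TIMP2 and TIMP3 in the right bars. The MMP bars drop from 48.3 and 45.1 to 30.7 and 31.1, and the TIMP bars from 81.0 and 82.8 to 66.1 and 65.9. RECK, at 0, adds nothing.

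Proteases and inhibitors both declined in sum, the proteases by more. The 5 MMPs summed to 46.7 ± 2.22 RPKM in control and 30.9 ± 0.278 RPKM in RUNX3 KO cells (SD, n = 2 per group), a change of -33.8%. The inhibitors summed to 81.9 ± 1.28 and 66.0 ± 0.173 RPKM, a change of -19.4%. The log2 ratio of MMPs to inhibitors was -0.75 and -0.88 in control libraries, against -1.11 and -1.08 after RUNX3 KO, without overlap. The ratio thus went from 0.570 to 0.468, a difference of -0.28 on the log2 scale, larger than the SD of 0.0914 in control and 0.0168 in RUNX3 KO cells. No test was made of this sum. Without MMP2, so for the membrane-type MMPs alone, the difference was -0.13, not far above the SD of 0.102 in control cells. The log2 ratios were then -0.92 and -1.07 in control and -1.14 and -1.11 in RUNX3 KO libraries.

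Pairs of an MMP and a TIMP went both ways, down for MMP14 and MMP2 and up for the other MMPs. MMP14 to TIMP2 had a log2 ratio of 0.15 and 0.011 in control and -0.71 and -0.69 in RUNX3 KO libraries. The ratio of these RPKM values thus went from 1.06 to 0.614. For MMP14 to TIMP3 it went from 1.26 to 0.741. For MMP2 to TIMP2 it went from 0.210 to 0.0289, with log2 ratios of -2.24 and -2.26 in control and -5.11 and -5.12 in RUNX3 KO libraries. In each of these 3 pairs the groups did not overlap. An exact permutation test over the libraries, two-sided, gave p = 0.333 for each of the 3 pairs, the smallest value it can give, so it cannot reach 0.05, and adjustment over the 3 pairs leaves it there. MMP14 to RECK has no ratio because RECK was at 0. The other 3 MMPs were set against TIMP2 after these values were seen, as a description with no test. MMP15 to TIMP2 went from 0.333 to 0.514, a difference of 0.63 on the log2 scale. MMP16 to TIMP2 went from 0.145 to 0.181 (log2 difference 0.32), and MMP24 to TIMP2 from 0.00873 to 0.0504 (log2 difference 2.53). In these 3 pairs the groups did not overlap either. MMP16 by itself had a log2 change of 0.06 and was not called, while that of TIMP2 was -0.26.

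Other genes of the same system were taken from lists written by symbol. Of 14 genes for MMP activation, docking and clearance, 12 were tested, 4 were lower, 3 were higher and 5 were not called. Over all tested genes, 24.4% were lower and 24.5% higher, so the counts of this list do not set it apart. The median of these 12 was -0.08 on the log2 scale. CD44, a hyaluronan receptor that docks MMP14 and is cut by it, changed by -3.30 (SE 0.0751). THBS1, which encodes thrombospondin 1 and binds MMP2, changed by -1.40 (SE 0.0610). LRP1, the endocytic receptor that clears MMP2 and its complexes, changed by -0.69 (SE 0.0483).

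The adjusted p of these 3 genes was at most 7.33e-23 by the edgeR test, and their groups did not overlap. Chosen after their values were seen, the proprotein convertases that activate membrane-type MMPs went different ways. FURIN rose from 261 and 243 to 350 and 380 counts, and PCSK6 from 517 and 523 to 793 and 809. PCSK5 fell from 58 and 51 to 13 and 11 counts, and PCSK7 had 680 and 708 against 679 and 638 counts (adjusted p = 0.216 by the edgeR test).

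Of 9 matrix substrates of MMP2 and MMP14, 6 were tested, 5 were lower (against 24.4% of all tested genes) and 1 was higher (against 24.5%), with a median of -1.94. CD44 is one of these 5 and is in both lists. COL1A2, a chain of type I collagen, had 1973 and 2030 counts in control and 1 and 5 in RUNX3 KO libraries. The most abundant of the 9, COL1A1 and COL3A1, fell by less, with log2 changes of -0.87 (SE 0.0237) and -0.30 (SE 0.0209). They were named after their values were seen. FN1, fibronectin, went from 115 and 95 to 15 and 11 counts, and is also one of the mesenchymal markers, of which all 6 tested were lower. COL4A2, a chain of type IV collagen named after its values were seen, was the higher 1, from 8 and 4 to 32 and 41 counts.

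Among 8 ADAM sheddases, 5 were tested, of which 1 was higher (against 24.5% of all tested genes), 1 was lower (against 24.4%) and 3 were not called. ADAM10, a target of RECK, rose by 0.32 on the log2 scale (SE 0.0485) while ADAM8, with 21 and 35 against 19 and 11 counts, was the 1 that was lower. ADAM17, the target of TIMP3, had a log2 change of -0.02 with an SE of 0.0676 (adjusted p = 0.794, edgeR). Of 9 partners of BSG, 7 were tested, 4 were higher (against 24.5% of all tested genes) and 1 was lower (against 24.4%), with a median of 0.16. SLC16A1, the lactate transporter MCT1 that BSG carries to the membrane, rose by 0.22 (SE 0.0312), and PPIB, a cyclophilin, by 0.18 (SE 0.0254). EMB, embigin, another partner of lactate transporters, changed by -0.53 (SE 0.109). The adjusted p of ADAM10, ADAM8, SLC16A1, PPIB and EMB was at most 0.0144 by the edgeR test. A list of 9 further genes held protease inhibitors, RECK again, testicans and the procollagen C-proteinase enhancers PCOLCE and PCOLCE2, which raise the activity of a protease. Only PCOLCE and SPOCK2 were tested. SPOCK2, a testican, had 36 and 28 against 22 and 19 counts and was lower (adjusted p = 0.0480, edgeR). PCOLCE had 5645 and 5591 against 5589 and 5954 counts (adjusted p = 0.450, edgeR). ADAM8, ADAM17, SPOCK2 and PCOLCE were named after their values were seen.

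**Figure D4:**
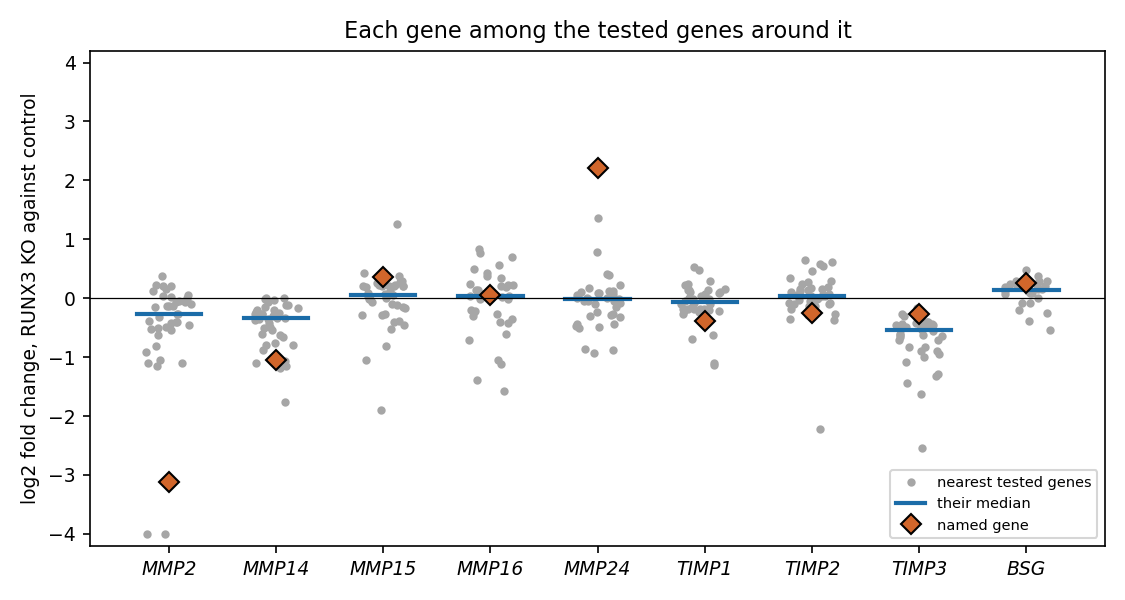
Log2 fold change of each tested gene (orange diamond) among the nearest tested genes on its chromosome (grey points, up to 20 on each side), with their median as a blue line. A pair of points beside MMP2 lies below the axis and is drawn at -4. TIMP3 sits above 37 of its 40 neighbours at -0.27, and MMP24 stands above all 40 of its own.

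The surroundings of some of these genes were shifted as well, against a median log2 fold change of -0.0021 over all tested genes. Neighbours are counted here by the sign or size of their log2 fold change, and not by a call. All 40 tested genes nearest to TIMP3 on chromosome 22 had negative values after RUNX3 KO. Their median on the log2 scale was -0.54, and 37 of them were lower by at least as much as TIMP3. With that median subtracted, the value of TIMP3 turned to 0.27. Around MMP14, 39 of 40 genes had negative values, with a median of -0.34, which leaves -0.70 for MMP14. Around MMP2, 30 of 40 had negative values, with a median of -0.27, which leaves -2.85. Named after their values were seen, TOX3 and IRX6 were the neighbours of MMP2 with larger falls, at -7.10 and -4.70, and ARHGEF40, SLC7A7, SLC7A8, PPP1R3E and EFS those of MMP14, from -1.77 to -1.06.

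The neighbourhoods of TIMP2 and MMP24 had medians of 0.03 and -0.01. TIMP2 lay within the spread of its own, since 5 of 40 neighbours were lower by at least as much. The same held for TIMP1 and MMP14 (5 of 40 each), for MMP2 (2 of 40), for MMP15 (3 of 40 higher by at least as much) and for BSG (5 of 25). For TIMP1 the median was -0.07, for MMP15 0.05, for MMP16 0.04, and for BSG, which has only 25 tested genes within reach near the end of its chromosome, 0.14. MMP24 exceeded all 40 of its neighbours. What part the surroundings had in the changes of TIMP3, MMP14, MMP2 and BSG was not tested.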

How the data were processed

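RNA-seq of HGC-27 cells was analysed in 2 control and 2 RUNX3 KO libraries. The deposited values are raw counts of reads on each gene symbol, not normalized. The submitters' processing notes name HISAT2 2.1.0, HTSeq and hg19, whereas the paper names STAR, featureCounts and GENCODE, and the tables close with 5 rows in HTSeq's form. These rows took 25.9% to 28.1% of counts and were left out. The strand setting is not given in the sources used here.

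Counts were filtered by filterByExpr at its defaults, scaled by TMM and compared with the quasi-likelihood test of edgeR 4.0.16 in R 4.3.3, without a block, over 12967 genes. SEs were derived from the log2 fold change and its F statistic. RPKM used merged exon lengths of GENCODE on GRCh37 (hg19), and 21479 of 25559 symbols matched. Per degree of freedom, the chi-square between replicates was 1.22 in control and 1.18 in RUNX3 KO libraries, slightly above counting noise. The steps were tested on simulated data.

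The 10 genes and the lists were chosen with earlier results of these data known. From each list at most 3 genes were named, by size of change among those with an adjusted p under 0.05, at least 50 counts on average and no overlap between groups, along with genes that overlap a member. Genes outside this rule, among them the markers given for a count of 0, were named after their values were seen. Alternatives were other scalings, DESeq2 1.42.0, limma-voom (limma 3.58.1), no filter or at least 10 counts in every library, a replicate block, a prior count of 2, each library left out, neighbourhood subtraction, other lengths and other sets of genes for the ratio.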

Additional observations from a re-analysis of the deposited data

How the results depend on the processing

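Across 13 other fits, 5 genes were called lower in each, and 2 or 3 were called higher, MMP24 being untested where 10 counts were required in every library and MMP15 being lost without RUNX3 KO replicate 2. In 4 of these fits 1 group had a single library, which was assumed to vary like the other group, so they say little about stability. With the replicate block 5 were lower and 3 higher, as without it, and the deviations of libraries with the same number had a correlation of -0.012, so the numbers mark no pairs. The study's criteria left 2 lower and 1 higher. Subtraction of the neighbourhood median turned TIMP3 to 0.27 and took BSG from 0.26 to 0.12. By sign alone, the genes called before subtraction then stood at 4 lower and 4 higher, and no test was made after it. MMP16, which was not called, went from -0.015 without control replicate 2 to 0.14 without control replicate 1. The log2 difference in the ratio of MMPs to inhibitors was -0.28, -0.36 with the longest transcript as length, -0.13 for membrane-type MMPs alone, and -0.35 to -0.22 with 1 library left out. The longest transcript put 3 genes in another place of the control order. DESeq2 called 3692 genes in all, against 6341 by edgeR. Few counts limit MMP24 and MMP2, and 2 libraries per group limit every value.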
